A study of Mus musculus with 111 samples.

Results

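The 5S ribosomal RNA rows of a mouse small RNA count table are the 49 rows, of 1268 in all, whose name starts with n-R5s, together with Rn5s, Gm25018 and Gm47301. All 49 were in the table, and the rule uses names alone. The table holds read counts from 111 libraries made by OTTR-seq, a small RNA method in which a reverse transcriptase adds both adaptors while copying the RNA. The libraries came from liver, heart, testis, caput and cauda (the names of the head and tail regions of the epididymis) and sperm of mice that were group-housed with free access to food and water and kept for 6 months on 1 of 4 diets. The low-protein diet held 10% protein and its control diet 18%, with sucrose making up the mass in the low-protein food. The high-fat diet gave 60% of calories as fat and the high-fat control diet 7.2% by its own description in the labels, which elsewhere set the high-fat diet against 16%. Each of the 24 groups of tissue and diet had 4 or 5 libraries. Strain, age and sex were not given in the labels used here. Nothing in the labels ties the libraries of a group to separate animals, so p-values here describe the spread among these libraries, part of which may be technical. The table holds small RNAs, so the labelled tissues could not be checked against messenger RNA markers.

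5S ribosomal RNA is the smallest RNA of the large ribosomal subunit. RNA polymerase III transcribes it from tandem arrays of near-identical genes, through a promoter that lies inside the transcribed sequence, while the other cytosolic ribosomal RNAs come from a separate precursor made by RNA polymerase I. It is carried to the assembling subunit with a pair of ribosomal proteins, and mature sperm, which translate little, are known to carry ribosomal RNA largely as fragments.

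The 49 rows held 16 different sequences, and many of them listed almost the same counts. All 49 were matched by name to GENCODE M21 transcripts on GRCm38, the assembly of mm10. Of these, 42 lay in 1 array on chromosome 8, all on the minus strand, between bases 123538786 and 123622046, with a median of 1701 bases between neighbouring starts. The other 7 lay elsewhere. The row with most reads, Gm25018, is annotated as ribosomal RNA at chromosome 8, bases 123565969 to 123566087, and 27 rows shared its sequence of 119 bases exactly. Gm25018 and n-R5s124 each listed 230124 reads over all libraries, and the other rows with that sequence, Rn5s among them, listed 225610 to 225629. Gm25018 is called the main row here. Rows were grouped where their counts, summed as absolute differences over all libraries, lay within 5% of the leading row's total, which gave 13 groups.

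The row n-R5s136 (140832 reads, chromosome 8) differs from the main row at position 33 alone, counted from 1 at the 5′ end, and its longest stretch of identity runs from position 34 to the 3′ end. The group of n-R5s112, n-R5s120 and n-R5s125 (94031 reads in the leading row, chromosome 8) differs at position 44 alone. The group of n-R5s106, n-R5s118 and n-R5s130 (2995 reads) differs at position 62 alone, near the middle. At the other end, n-R5s102 (80657 reads) differs at positions 89, 90 and 93, so that it equals the main row from position 1 to 88.

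The row n-R5s102 grouped with Gm47301 and n-R5s193, which listed 81162 reads each. Gm47301 is annotated as a microRNA gene of 60 bases on chromosome 4, bases 149817764 to 149817823 of the plus strand, and lies at positions 33 to 92 of n-R5s193, whose first 90 bases equal those of the main row. The longest stretch that each of these 3 rows shares with the main row ends at position 88 or 90. The group of n-R5s101 and n-R5s129 (21215 reads), with n-R5s114, n-R5s119 and n-R5s131, adds a difference at position 2 to the same 3′ differences. The row n-R5s115 (17012 reads) differs at positions 3 and 86.

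Outside the array, n-R5s185 (44249 reads, chromosome 4, bases 53860652 to 53860770) differs at positions 7, 25, 36, 47 and 49 and equals the main row from position 50 on. The row n-R5s194 (14491 reads, chromosome 3, bases 4338998 to 4339116) differs at positions 1, 30, 37, 42 and 47 and equals it from position 48 on. The least counted groups were n-R5s2 with 597 reads, n-R5s109 with 199, n-R5s33 with 143 and n-R5s151 with 86. A read from a stretch that rows share may be listed under each of them. Whether a count under a variant row came from that gene or from a shared stretch cannot be told apart in the table. A further 8 rows outside the naming rule also hold 5S sequence: 5 of them have the main sequence, and these 8 stayed out of library sizes and tests.

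The plot of substituted positions sets each variant beside its mean share of main-row reads in the 6 tissues.

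**Figure D1:**
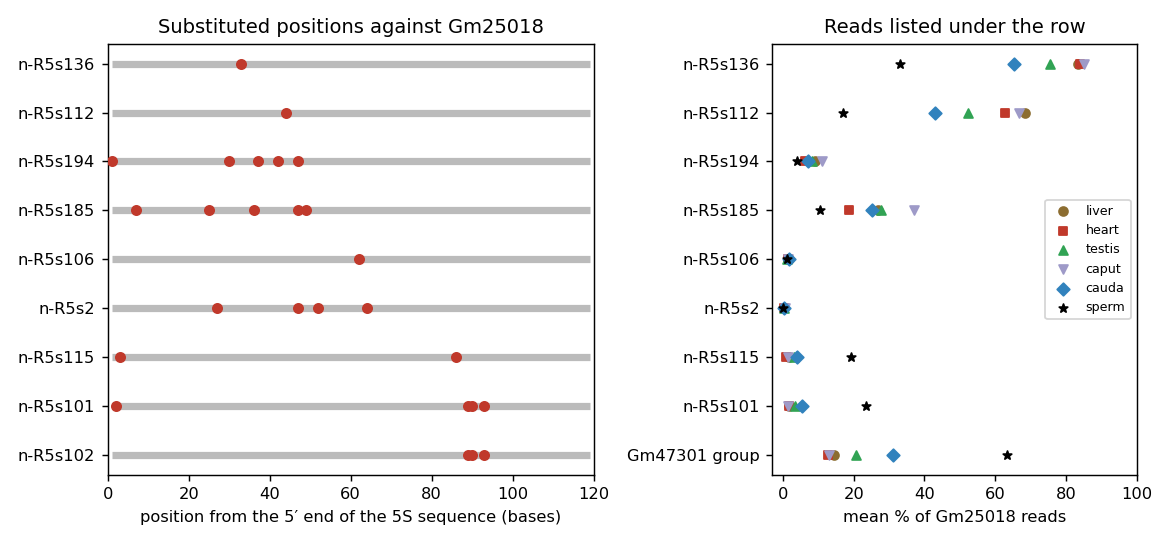
The left panel marks, by position in bases from the 5′ end, where each variant row differs from Gm25018. The right panel gives the mean reads of the row's group as percent of Gm25018 reads in each tissue (libraries with at least 100 main-row reads). Variants with over 500 reads are plotted. Of these, the 4 rows with all differences before position 50 have their lowest mean in sperm (n-R5s136 at 33.1%), and the 3 with differences after position 85 have their highest there (Gm47301 group at 63.2%).

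Depth differed widely between libraries. After each set of rows listing the same reads was reduced to 1, libraries held 825 to 1467728 reads (median 58234), of which 9 to 19912 (median 1179) were main-row reads. The replicates were not copies of one another: over 204 replicate pairs, chi-square per degree of freedom was never below 1.54. The third low-protein sperm library stood apart from the other sperm libraries, with 42 main-row reads of 12260.

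Sperm libraries carried the highest 5S share. The main row took 12.7% ± 6.87 of reads in sperm (SD, n = 19), with a lowest value of 0.343%, a median of 10.9% and a highest of 31.4%. Cauda followed with 3.25% ± 1.65 (n = 18), between 0.722% and 6.42% with a median of 2.94%. Testis held 0.969% ± 0.683 (n = 19) with a range of 0.362% to 2.74% and a median of 0.744%. Apart from the low-protein library named above, the lowest sperm library, at 4.42%, lay above every testis library.

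Liver held 0.924% ± 0.393 (n = 17), from 0.342% to 1.61% with a median of 0.818%. Caput held 0.800% ± 0.534 (n = 19), from 0.360% to 2.49% with a median of 0.649%. Heart held 0.690% ± 0.878 (n = 19), from 0.0664% to 3.23% with a median of 0.391%, the widest spread for its mean. In bulk samples, fewer cells of a type and less RNA per cell cannot be told apart.

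Sperm differed from each of the other 5 tissues and cauda from each of the other 4 (two-sided permutation test of 100000 resamples, p = 1e-05, the smallest such permutations can give, and 1.67e-05 after Benjamini-Hochberg adjustment over 15 pairs). The mean share in sperm was higher than in cauda by 9.48 percentage points. Without the third low-protein sperm library the difference was 10.2 points. With the 4 diets pooled, liver, testis, caput and heart did not differ from each other beyond their spread, with adjusted p of 0.429 to 0.815. Part of the heart spread lay between diets. On the control diet no heart library passed 0.126%, below the lowest liver (0.345%), testis (0.362%) and caput (0.360%) libraries. On the low-protein diet the heart mean of 1.80% was above those of liver (0.897%), testis (0.980%) and caput (1.38%).

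**Figure D2:**
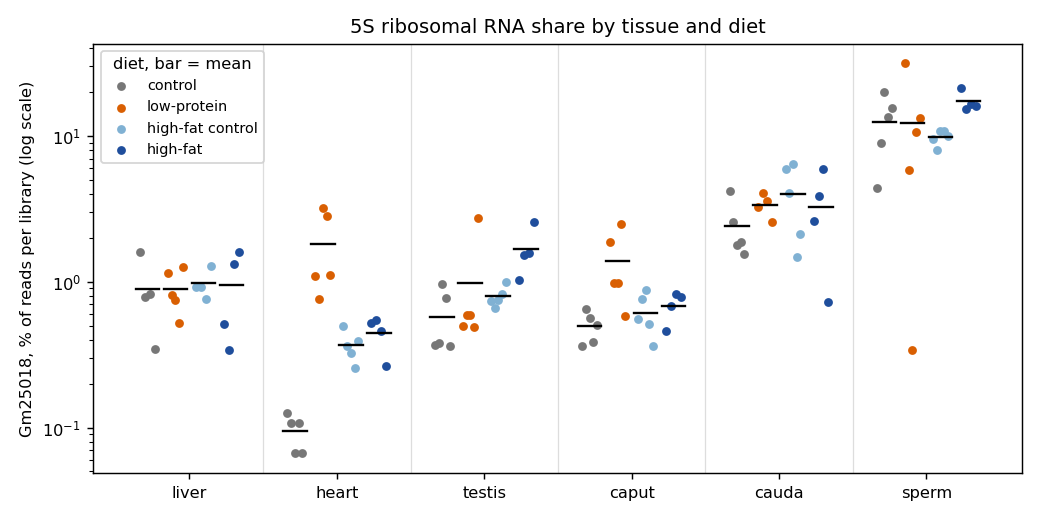
Each point is 1 library's Gm25018 reads as percent of its reads, on a log scale, by tissue and diet, and bars are group means. Sperm libraries lie highest, with 1 low-protein library at 0.343%, and the 5 heart control libraries lie lowest, all under 0.126%.

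Tissues were also compared in a fit across all features (edgeR quasi-likelihood test on counts, 300 rows tested; called at an adjusted p under 0.05 and a log2 fold change of at least 1). Of the 13 leading rows, 9 passed the filter on low counts. A row can pass it through the groups where it is high, and rows may list the same reads. The counts of rows called in all the fits below are therefore descriptions. In sperm against the mean of the other tissues, 9 of 9 rows rose, where 39.7% of all features tested were called higher. The main row rose by 3.37 on the log2 scale (SE 0.204, edgeR adjusted p = 2.59e-32). The median over the 9 rows was 3.14 and over all features 0.41.

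The variants moved by different amounts in that comparison. The log2 change was 6.49 (SE 0.248) for n-R5s101, 6.48 (SE 0.248) for n-R5s115 and 5.17 (SE 0.222) for Gm47301. It was 2.29 (SE 0.234) for n-R5s136, 2.14 (SE 0.253) for n-R5s185 and 1.74 (SE 0.251) for n-R5s112. Of the rows tested, the 3 with differences after position 85 had higher values than those with all their differences before position 50. The fit placed sperm and cauda highest, as the shares did, but the other tissues in another order, with heart after cauda and testis last.

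Along the male tract, sperm exceeded testis in 9 of 9 rows, with 32.3% of features called higher, and the main row by 4.65 (SE 0.361, edgeR adjusted p = 3.67e-23). Sperm exceeded cauda in 7 of 9 rows, with 23% of features called higher, and the main row by 1.78 (SE 0.327, edgeR adjusted p = 2.92e-06). The rows n-R5s112, at 0.71 (SE 0.363), and n-R5s185, at 0.73 (SE 0.375), did not pass there. Cauda exceeded caput in 9 of 9 rows, with 40.7% of features called higher, and the main row by 2.43 (SE 0.331, edgeR adjusted p = 1.49e-10).

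Testis was lower than the mean of the others in 9 of 9 rows, with 20.3% of features called lower, and its main row by -2.21 (SE 0.287). Caput was lower in 7 of 9 rows, with 32.3% called lower, and its main row by -1.67 (SE 0.275). Cauda was higher in 8 of 9 rows, with 30.3% called higher, and its main row by 1.24 (SE 0.229). In liver, Gm47301, n-R5s101 and n-R5s115 were lower and the other 6 rows were not called, where 20.0% of features were called lower. The liver main row stood at -0.85 (SE 0.271), short of the fold threshold.

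In heart, n-R5s101 and n-R5s115 were lower and the other 7 rows were not called, where 28.7% of features were called lower. The heart main row stood at 0.13 (SE 0.253), and its sign depended on the scaling, with -0.996 under RLE factors and -1.87 with total counts. These scalings moved the median of all features in heart by -1.07 and -1.86, and the main row stayed 0.71 to 0.85 above that median. With them 6 of 9 and 9 of 9 rows were called lower in heart.

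Scaling also moved the split of all features called higher and lower. In sperm 119 were higher and 78 lower, and 159 and 44 with RLE factors. In heart 41 and 86 became 25 and 176 with RLE factors and 20 and 222 with total counts. In testis 117 and 61 became 190 and 18 with total counts, and in sperm against cauda 69 and 64 became 140 and 20 with RLE factors. The directions of the main row in sperm, cauda, testis, caput and liver were the same under all 3 scalings.

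Other ribosomal and RNA polymerase III transcripts gave the setting for these values. Of the 9 ribosomal RNA names listed for context, 3 were tested: the mitochondrial mt-Rnr1 and mt-Rnr2 and Mir6236, a hairpin annotated within ribosomal RNA. All 3 rose in sperm against the mean of the other tissues, with a median log2 change of 2.22. Of 10 listed RNA polymerase III transcripts, 7 were tested and 5 rose there, among them Rpph1, the RNA of RNase P, at 3.86 (SE 0.308) and Rn7sk, a regulator of transcription elongation, at 2.34 (SE 0.229). Of 74 cytosolic tRNA rows tested, 19 rose and 19 fell, with a median of 0.10.

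**Figure D3:**
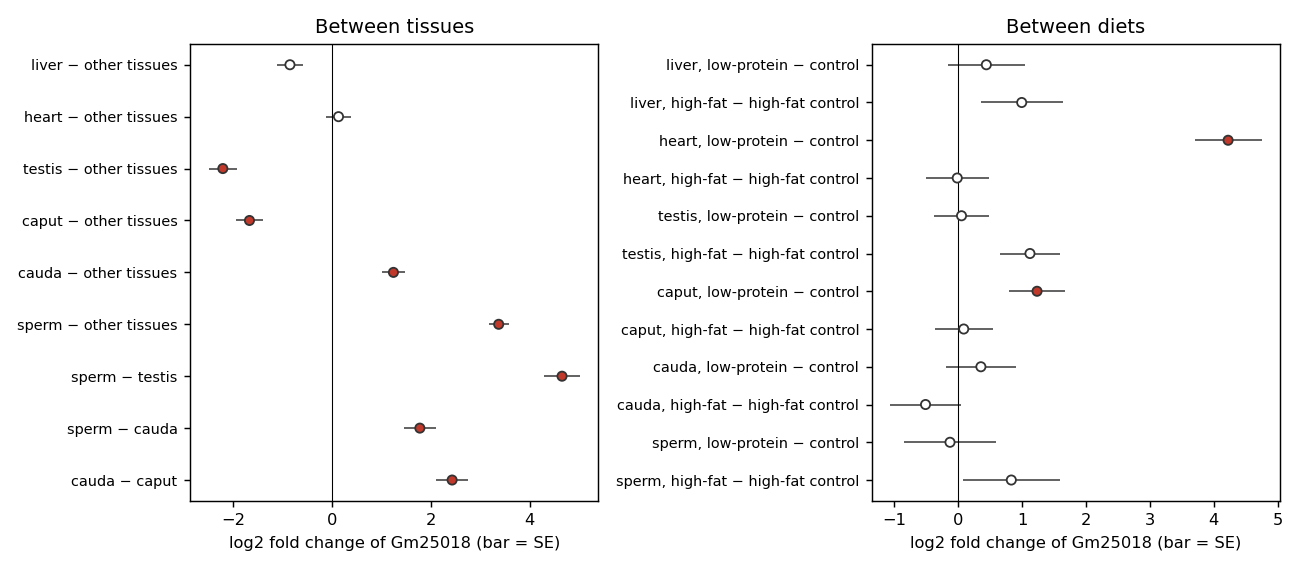
Points are log2 fold changes of Gm25018 between tissues (left) and between diets within a tissue (right) with SE bars, and filled points passed the test. Sperm against the mean of the other tissues stands at 3.37, and heart on the low-protein diet at 4.23.

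The relation of the variants to the main row within a library does not depend on depth or on scaling between libraries. It was measured as the reads of a row in percent of main-row reads, in the 101 libraries with at least 100 main-row reads. These values compare reads listed under rows, not molecules, and are not per length. In sperm, Gm47301 reached 63.2% ± 16.5 (n = 18), with a lowest value of 30.4%, a median of 64.2% and a highest of 90.9%. In cauda it reached 31.2% ± 15.5 (n = 18) and in testis 20.6% ± 6.63 (n = 19). It was 14.5% ± 10.1 in liver (n = 15), 12.9% ± 6.81 in caput (n = 13) and 12.6% ± 5.33 in heart (n = 18). The cauda libraries ran from 11.2% to 65.0%. Their highest values were 65.0% in the first and second control libraries and 50.1% in the third high-fat control library. How far these libraries carry the cauda differences was not tested.

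The row n-R5s136 ran the opposite way. It stood at 33.1% ± 16.9 in sperm (lowest 7.22%, median 32.4%, highest 66.6%) and 65.1% ± 16.0 in cauda (lowest 29.6%, highest 87.0%). It stood at 75.6% ± 6.65 in testis, 83.3% ± 10.3 in liver, 83.8% ± 7.35 in heart and 85.0% ± 7.53 in caput. Sperm differed from each of the other 5 tissues for both rows (two-sided permutation test, p = 1e-05, the smallest it can give, and 4.39e-05 after adjustment over 180 tests). Cauda also differed from the other tissues, with adjusted p of 4.39e-05 to 0.0144 for Gm47301 and 7.83e-05 to 0.0196 for n-R5s136 against the 4 tissues other than sperm.

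Added together, the reads of n-R5s136 and Gm47301 came to 96.8% ± 1.77 of main-row reads over the 101 libraries, and to 96.2% to 97.9% in the tissue means. No library went above 100%. The sum fell below 94% in 5 libraries, of which 3 were heart control libraries, the lowest at 88.6%. A library with a higher share under Gm47301 had a nearly equally lower share under n-R5s136. This is a description of rows that share main-row sequence and a library, and it carries no test.

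**Figure D4:**
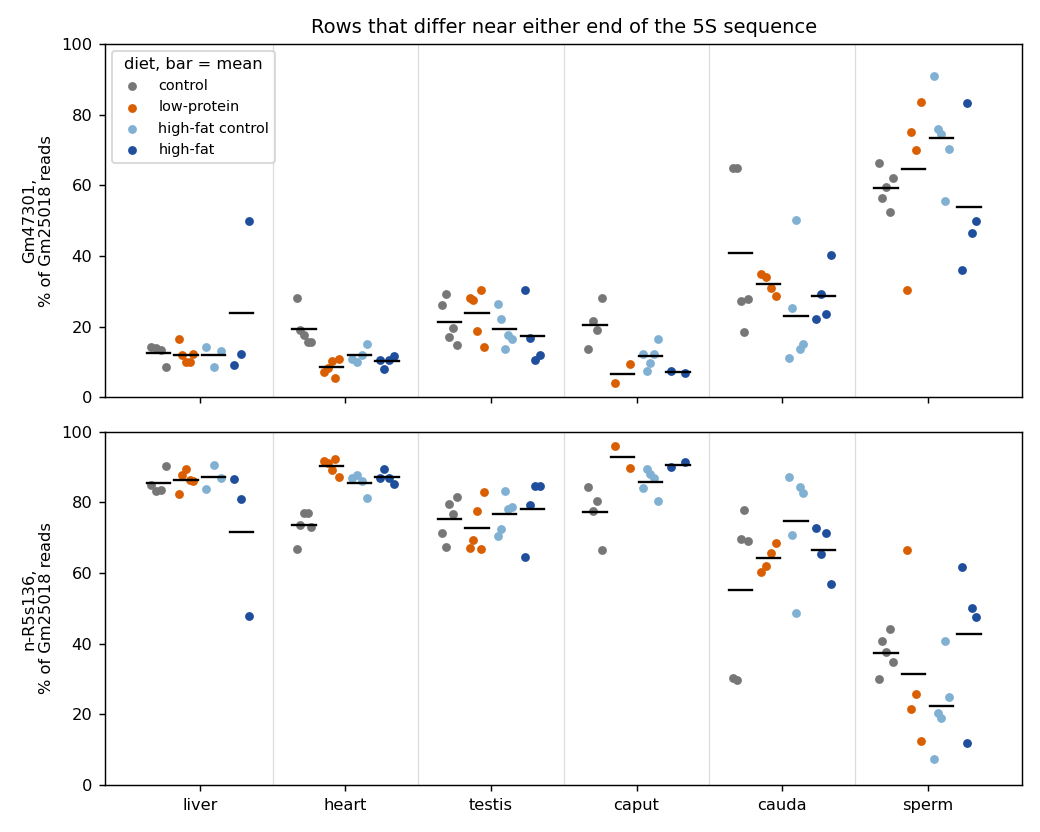
Each point is 1 library's reads under Gm47301 (top) and n-R5s136 (bottom) in percent of its Gm25018 reads, by tissue and diet, with bars at group means. Gm47301 averages 63.2% in sperm and 12.6% in heart, and n-R5s136 33.1% and 83.8%.

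Among the other rows with all differences before position 50, n-R5s112 stood at 17.1% ± 10.6 in sperm, 42.9% ± 11.5 in cauda and 52.4% to 68.3% in the other tissues. The row n-R5s185 stood at 10.48% ± 6.74 in sperm and 18.7% to 37.1% elsewhere, and n-R5s194 at 4.00% ± 2.01 and 6.37% to 10.9%. Each of these differed between sperm and every other tissue, with adjusted p of at most 0.000643.

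With differences at both ends, n-R5s101 stood at 23.3% ± 10.4 in sperm and 1.42% to 5.35% elsewhere. The row n-R5s115 stood at 19.3% ± 9.56 in sperm and 0.961% to 4.00% elsewhere. Sperm differed from every other tissue for both (adjusted p = 4.39e-05, permutation test). They equal the main row from position 3 to 88 and from position 4 to 85.

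The row n-R5s106, with its difference at position 62, took between 1.17% and 1.64% of main-row reads in the 6 tissues. Of its 15 pairs of tissues 3 differed, all with cauda as the higher, and the largest difference was 0.470 percentage points between cauda and sperm (adjusted p = 0.000485, permutation test). Over all 12 variant groups, 90 of 180 tests were called. The least counted rows did not all follow the pattern of the others. The row n-R5s2, which differs at positions 27 to 64, was lowest in sperm, at 0.109%, with adjusted p of 0.000793 to 0.0128 against the other tissues. The row n-R5s33 (positions 26 to 64) was called in 2 pairs, neither of them with sperm. The rows n-R5s109 and n-R5s151 also differ from the main row at position 99, but they were highest in caput (0.161%) and in cauda (0.0524%), not in sperm, and no pair was called. Over all libraries n-R5s109 had 7 reads in caput and 78 in sperm, and n-R5s151 had 26 in cauda and 25 in sperm. Their order among tissues rests on these few reads.

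Among diets, the heart libraries on the low-protein diet stood out. The main row took 1.10%, 0.764%, 3.23%, 2.81% and 1.11% of reads in the 5 low-protein libraries. It took 0.126%, 0.107%, 0.0671%, 0.108% and 0.0664% in the 5 control libraries. The groups did not overlap, and the control libraries also lay below every heart library of both fat diets, which ranged from 0.256% to 0.543%.

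In the fit, 11 of 13 leading rows passed the low-count filter in heart, and 11 of 11 rose on the low-protein diet, where 39% of features were called higher. A row can pass that filter through the low-protein group alone, so the count is given as a description. The main row rose by 4.23 on the log2 scale (SE 0.525, edgeR adjusted p = 8.46e-15). The rows ranged from 2.98 (SE 0.487) for Gm47301 to 4.80 (SE 0.694) for n-R5s109, with a median of 4.23 against 0.15 over all 251 features. The listed ribosomal RNAs (3 of 3, median 3.11) and RNA polymerase III transcripts (6 of 6, median 4.22) rose in the same comparison, while 73 of 98 cytosolic tRNA rows fell and 10 rose.

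Several measures moved with that difference. Control heart libraries held 735087 to 1467728 reads and low-protein ones 29114 to 469488, without overlap, while their main-row reads, 739 to 1356 and 939 to 5232, did overlap. The column names give the heart control libraries the numbers 5 to 9 and the low-protein ones 35 to 39. The meaning of these numbers is not stated in the labels, so diet and that numbering cannot be told apart. The part of depth in the result was not tested. Heart libraries of the fat diets carry no such number. Liver controls have the numbers 1 to 4 and low-protein livers 48 to 52, so the same limit applies there. Numbers recur between tissues, as in caput and cauda, and their relation to the tissue comparisons was not tested.

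The variant shares in heart also separated the groups. Gm47301 stood at 7.21%, 8.30%, 10.3%, 5.37% and 10.95% of main-row reads in low-protein hearts and at 28.1%, 19.03%, 17.7%, 15.7% and 15.6% in controls. For n-R5s136 the means were 90.3% ± 2.04 and 73.4% ± 4.13 (SD, n = 5 each). For n-R5s112 they were 71.6% ± 2.79 and 52.7% ± 4.65, and for n-R5s101 1.18% ± 0.328 and 2.37% ± 0.563. Of the 12 variants compared, these 4 did not overlap between the groups, and the others did. The share of all features that separate in this way was not counted, and the 4 rows may list the same reads. These 4 rows each had p = 0.00794 in an exact two-sided permutation test, the smallest that 5 against 5 allows. After Benjamini-Hochberg adjustment over the 144 permutation tests by diet they stood at p = 0.229. None of the 144 was called, and 9 had an unadjusted p under 0.05. Separation by diet was not confined to heart. In liver, n-R5s2 ran from 0.0848% to 0.376% on the low-protein diet and from 0.573% to 1.05% on the control diet. That row had 101 reads over all liver libraries.

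Caput gave the other diet difference. The main row took 1.88%, 0.978%, 0.987%, 2.49% and 0.582% of reads on the low-protein diet. It took 0.360%, 0.649%, 0.565%, 0.388% and 0.506% on the control diet. Only the low-protein library at 0.582% lay within the control range.

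Of 6 leading rows tested in caput, 5 rose, where 16.8% of features were called higher. This count too is a description, since a row can pass the filter through a single group. The main row rose by 1.23 (SE 0.439, edgeR adjusted p = 0.0185) and n-R5s185 by 1.97 (SE 0.473, edgeR adjusted p = 0.00062), while Gm47301 was at 0.00. These libraries were shallow, with 912 to 16165 reads and 9 to 403 main-row reads on the low-protein diet, against 13711 to 85806 reads in controls. With no low-count filter the main row was no longer called, at 0.98 with an edgeR adjusted p of 0.223, and 3 of 13 rows were. Only 2 low-protein caput libraries reached 100 main-row reads. The column names number the caput controls 11 to 15 and the low-protein libraries 21 to 25. Diet and that numbering cannot be told apart in caput either.

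No member was called in the other 10 diet comparisons. In counts simulated for the heart diet fit, 8.7% of changes of 1 on the log2 scale were called, and 87.0% of changes of 2. Smaller changes may therefore have been missed. The diet fits of the other tissues were not simulated. Heart libraries were the deepest, with a mean of 540928 reads against 36323 in caput and 38419 in sperm. The simulated rates may not hold in those tissues. The background of features called was 33% for low protein in liver, 3.98% in cauda, and 0% in testis and sperm. For high fat it was 2.36% in liver, 1.2% in heart, 0.671% in caput, and 0% in testis, cauda and sperm. In the comparisons at 0%, edgeR gave 42 features at an unadjusted p under 0.05 for low protein in testis and 2 in sperm, and for high fat 27 in testis, 14 in cauda and 11 in sperm. DESeq2 called 2 features for high fat in testis and none in the other 4. In liver on the high-fat diet, Gm47301 stood at 2.70 (SE 0.9, edgeR adjusted p = 0.0812) and passed at 3.04 (edgeR adjusted p = 0.0457) without libraries under 5000 reads. One library stood apart there. The fourth high-fat liver library had Gm47301 at 49.9% of main-row reads, while the first and second had 9.22% and 12.3% and the 3 high-fat control libraries with enough reads 8.70% to 14.1%. Its main row also stood at 34.6% of cytosolic tRNA reads, against 1.43% to 6.11% in the other high-fat livers. Without it Gm47301 was at 0.18 (SE 0.591, edgeR adjusted p = 0.889).

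In 2 of these comparisons the groups did not overlap in share. How many of all features did not overlap there was not counted. Sperm on the high-fat diet held 21.2%, 15.4%, 16.5% and 15.9%, against 9.51%, 8.03%, 10.9%, 10.8% and 9.98% on its control diet. The fitted change of the main row there was 0.83 (SE 0.761, edgeR adjusted p = 0.959). Testis on the high-fat diet held 1.03%, 1.54%, 1.56% and 2.56%, against 0.743%, 0.664%, 0.744%, 0.820% and 0.996%, with a fitted change of 1.12 (SE 0.464, edgeR adjusted p = 0.674).

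In sperm on the low-protein diet the main row stood at -0.13 (SE 0.721), with shares of 31.4%, 5.85%, 0.343%, 10.6% and 13.2% against 4.42%, 8.88%, 19.9%, 13.6% and 15.5%. The low-protein values held both the highest and the lowest sperm library. Liver stood at 0.44 (SE 0.604) for low protein and 0.99 (SE 0.642) for high fat, and cauda at 0.36 (SE 0.543) and -0.51 (SE 0.549). All these groups overlapped. With 1 library left out, liver high fat lay between 0.0635, without the fourth high-fat library, and 1.32, and the 2 cauda values between 0.0136 and 0.816 and between -0.831 and -0.113.

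Whether a diet change differed among the 6 tissues was tested directly. For low protein, 9 of 10 rows tested were called, with 39.4% of features called, and the main row had an edgeR adjusted p of 0.000204. Without libraries under 5000 reads Gm47301 was not called (edgeR adjusted p = 0.0901). The row n-R5s101 was called with RLE factors (0.0190) and total counts (0.0316). For high fat, 1 of 10 was called, n-R5s101 at an edgeR adjusted p of 0.0448, with 3.86% of features called, and the main row stood at 0.610. Without the fourth high-fat liver library n-R5s101 was not called (edgeR adjusted p = 0.223), nor with RLE factors (0.175) or total counts (0.186). The rows called for high fat changed with the setting. Total counts called n-R5s112 and n-R5s185 (edgeR adjusted p = 0.0485 each). Without libraries under 5000 reads, n-R5s101 (0.00748), n-R5s115 (0.0151), Gm47301 (0.0180) and n-R5s185 (0.0371) were called.

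The features whose median level followed that of the main row most closely over the 24 groups were Gm24187 (Spearman rho 0.89), Gm23935 (0.88), Gm24270 (0.88), Gm25911 (0.85) and Gm26461 (0.84), among features with at least 1000 reads. These are descriptions over groups that share libraries and depth. Gm24187 had medians of 55641 RPM (reads scaled to library size) in sperm and 5017 in cauda. Gm26461 peaked in cauda instead, at 100901 RPM, with 13191 in sperm.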

How the data were processed

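Small RNA read counts per annotated row were deposited by the authors as 1 table for all 111 libraries, and whole numbers were used as deposited. All its column names end in the same suffix, and the labels do not state what it means. Whether it marks a selection of reads is not known. The submitters' processing notes name cutadapt, the mm10 build and DESeq2. For the aligner, and for reads that match several rows, the sources used here give nothing. Positions in the 5S RNA were read from GENCODE M21 transcripts on GRCm38, and the sequences themselves are not reported here. Members and lists were chosen with earlier results of these data known.

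Rows that listed nearly the same counts were reduced to the leading row, leaving 1041 features with 50.8% of all counts. Library sizes and TMM factors came from these, and 12 further 5S leading rows were tested without entering them. Counts were fitted with the edgeR 4.0.16 quasi-likelihood test (robust, filterByExpr, Benjamini-Hochberg within each contrast): tissues in 1 fit with diet as a term, diets in 1 fit per tissue, and tissue by diet terms for differences among tissues. Shares and within-library percentages were compared by permutation tests with numpy. The scripts were tested on simulated data: most of the larger changes and a minority of the smaller ones were called, and fold changes came out somewhat low. The share of simulated rows that changed was lowered, and the error limit set, after a first version had given larger errors. Named are the leading rows of the 5S groups, Gm25018, Gm47301, Rn5s and the 5 features most like the main row. Alternatives were RLE factors, total counts, DESeq2, no filter, deeper libraries only, all rows as deposited, the replicate block, single diets or libraries left out, other denominators and other read minimums. Replicate numbers were taken from the sample titles. Within a tissue, correlations of same-numbered libraries from different diets had medians of -0.084 to 0.079. Whether libraries of different tissues came from the same animal was not checked, and the tests treat all libraries as independent. Counts limit precision, and intervals were not computed.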

Additional observations from a re-analysis of the deposited data

Results flagged for a closer look

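In the low-protein testis group, the fifth library had a main-row share of 2.74%, while the other 4 lay between 0.490% and 0.587%. In the liver control group, the fourth library had Gm47301 at 8.53% of main-row reads, below the other 3 at 13.5% to 14.1%. In the heart control group, the first library had Gm47301 at 28.1%, above the other 4 at 15.6% to 19.03%. Each lay farther from its group than the 95% limit of Dixon's test, which chance passes in about 1 group in 20. It was run on 24 groups for the share and on 20 each for Gm47301 and n-R5s136.

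The low-protein change differed among the 6 tissues in a test of the difference (edgeR, adjusted p) for Gm25018 (0.000204), n-R5s136 (0.000222), n-R5s112 (4.9e-05), n-R5s185 (4.77e-05), n-R5s194 (9.78e-05), n-R5s106 (0.000271), n-R5s2 (0.000301), n-R5s115 (0.00381) and Gm47301 (0.0345). Without libraries under 5000 reads the low-protein difference was not called for Gm47301 (0.0901). The high-fat change differed for n-R5s101 (0.0448), but not without the fourth high-fat liver library (0.223). Without libraries under 5000 reads the high-fat change differed also for n-R5s115 (0.0151), Gm47301 (0.0180) and n-R5s185 (0.0371).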

How the results depend on the processing

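Values are log2 changes of the main row unless stated. The main-row calls for sperm, for sperm against testis or cauda and for cauda against caput held under every alternative run, as did heart low protein, with 3.90 to 4.60 when 1 library was left out. Heart against the mean of the other tissues changed sign with RLE factors (-0.996), total counts (-1.87), control diets only (-0.761) and without the low-protein diet (-0.956). Liver was called with RLE factors (-1.02). Testis fell short of the fold threshold with total counts (-0.901), and cauda with RLE factors (0.907), all rows as deposited (0.971) and without the control (0.907), low-protein (0.987), high-fat control (0.870) or high-fat diet (0.986). Caput low protein was not called without a low-count filter (0.978), and ranged from 1.11 to 1.85 with 1 library left out, highest without the first control library.

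Changes that were not called crossed 0: liver high fat with total counts (-0.0778), heart high fat with RLE factors (0.0063), total counts (0.277) and no filter (0.0358), testis low protein with no filter (-0.0372) and all rows (-0.245), and sperm low protein with RLE factors (0.105). With 1 library left out, heart high fat ran from -0.132 to 0.229, testis low protein from -0.553 to 0.299 and sperm low protein from -0.794 to 0.357. With the replicate block, testis low protein stood at -0.212 and caput high fat at -0.00581, and the block changed no main-row call. It took cauda against the others from 8 to 7 rows called and liver high fat from 5 features to 0.

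As a share of cytosolic tRNA reads, liver minus testis was 1.88 percentage points, heart minus testis 0.542 and heart minus caput 2.0, each with the sign turned. Liver minus caput was then called (3.34) and liver minus cauda was not (-4.96). As a share of all rows, heart minus testis was called (-0.219). With a minimum of 500 main-row reads, 59 instead of 90 variant tests between tissues were called, and caput minus sperm was not called for Gm47301 (-51.1) or n-R5s136 (51), where a single caput library is that deep, so that this comparison says nothing. With more rows tested the counts of features called moved both ways. For sperm, 197 became 512 with no filter and 320 with all rows as deposited. For caput low protein, 65 became 59 and 140. With all rows, cauda low protein went from 9 to 0, liver high fat from 5 to 0 and heart high fat from 3 to 0, and 4 instead of 8 5S rows were called for cauda against the others. For heart against the others, 127 became 201 with RLE factors and 242 with total counts. For liver high fat, 5 became 0 with RLE factors and 22 with DESeq2, which called n-R5s101 there (3.22). For cauda low protein, 9 became 3 with RLE factors and 16 with DESeq2. The causes of the other changes were not tested. Leaving out the third low-protein sperm library or the fourth high-fat liver library was chosen after seeing the data. The former changed no main-row call, but the 5S rows called went from 3 to 2 for liver, 2 to 3 for heart, 7 to 8 for caput and 8 to 6 for cauda.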
